A study of Mus musculus with 8 samples.

Results

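The histone genes described here are the replication-dependent genes of the clusters Hist1, Hist2, Hist3 and Hist4, together with the variant genes H2afx, H2afz and H3f3b, which lie outside the clusters. They were chosen by gene symbol and not by a threshold on measured values, with earlier results of these data known. Of 65 such symbols on the array, 42 had at least 1 probe set that named no other gene, and these 42 of 19560 measured genes are the members. They comprised 5 linker H1, 10 H2A, 9 H2B, 5 H3 and 10 H4 genes, and the 3 variants. The remaining 23 symbols were named only by probe sets that list several genes. Those named by shared probe sets of 1 core class were measured as families. Hist2h2aa1, Hist2h2aa2 and Hist1h2be were named only by probe sets that mix classes, and they entered no family value. The variant genes H3f3a and H1f0 and the somatic linker gene Hist1h1c were not analysed here.

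RNA was measured in liver of 8 male mice aged 6 weeks, with 1 Affymetrix array per mouse. One group held 4 Tak1/Caspase8 LPC double knockout mice, in which liver parenchymal cells (LPC) lack the kinase TAK1 and the apoptosis protease caspase 8. The other held 4 Tak1 LPC-KO/Rip3-/- mice, in which LPC lack TAK1 and the animal lacks the necroptosis kinase RIP3. The study set apoptotic against necrotic signalling with this pair of genotypes. Loss of TAK1 in LPC is thus shared by all 8 mice. No liver with TAK1 intact was analysed here, so lower in one group cannot be told apart from higher in the other. Below, the groups are Tak1/Casp8 and Tak1/Rip3, values are log2 intensities, and differences are given as Tak1/Casp8 less Tak1/Rip3 with their standard error. The labels do not say whether mice were littermates or which promoter drives the deletion in LPC, and LPC are only some of the cells in a piece of liver.

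Histones are the proteins around which DNA is wound. H2A, H2B, H3 and H4 form the core of the nucleosome, and linker H1 binds where DNA enters and leaves it. A dividing cell must make new histones while it copies its DNA, and the replication-dependent genes serve this need. Their mRNAs appear in S phase, mostly lack introns and a poly(A) tail, and end in a stem-loop bound by the protein SLBP. Replacement histones such as H2A.Z and H3.3 come from ordinary polyadenylated mRNAs and are also made outside S phase. Most hepatocytes of an adult liver do not divide, but they can re-enter the cell cycle after injury.

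Array medians lay between 8.06 and 8.16, and pairs of arrays correlated across genes between 0.975 and 0.993. The targeted gene Casp8 was lower by 1.31 (adjusted p = 0.000123) in Tak1/Casp8, and Ripk3, which encodes RIP3, was higher there by 0.98 (adjusted p = 0.00782). Map3k7, which encodes TAK1, differed by -0.08 (adjusted p = 0.695) between these groups, both of which carry its deletion. The hepatocyte marker Alb, which encodes albumin, averaged 13.91 in Tak1/Casp8, near the top of all genes. All p-values adjusted over all genes are from limma with the Benjamini-Hochberg method, and a gene was called at an adjusted p under 0.05. The number of arrays limits the precision, and p-values measure only the spread between these arrays. In whole liver, fewer cells of a type and less RNA per cell cannot be told apart.

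In the livers whose LPC lack caspase 8, called histone genes were lower in each of the 5 classes, and none was called higher. Of the 42 members, 14 were called lower and 0 higher, where 4.05% of all genes were called lower, 2.64% higher and 6.69% in either direction. At an unadjusted p under 0.05, 24 members were lower and 0 higher. Among all 19560 genes, 2310 were lower and 1820 higher at that threshold. The difference was negative for 36 members and positive for 6, against 47.4% negative among all genes. The median difference of the members was -0.36, with a range from -1.70 to 0.36, and the median of all genes was 0.01. The 4 arrays of each group did not overlap for 19 members, each lower in Tak1/Casp8. Among all genes, 8.3% were lower without overlap and 14.6% did not overlap in either direction. When each group kept its own unmoderated variance, 0 members were called. Of all genes, 69 were then called lower, where the main fit called 792. The count of 14 fell to 7 when Tak1/Rip3 replicate 1, Tak1/Rip3 replicate 4 or Tak1/Casp8 replicate 2 was left out. It fell to 8 without Tak1/Casp8 replicate 3. In the same order, 438, 474, 486 and 552 of all genes were called lower in these fits.

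**Figure D1:**
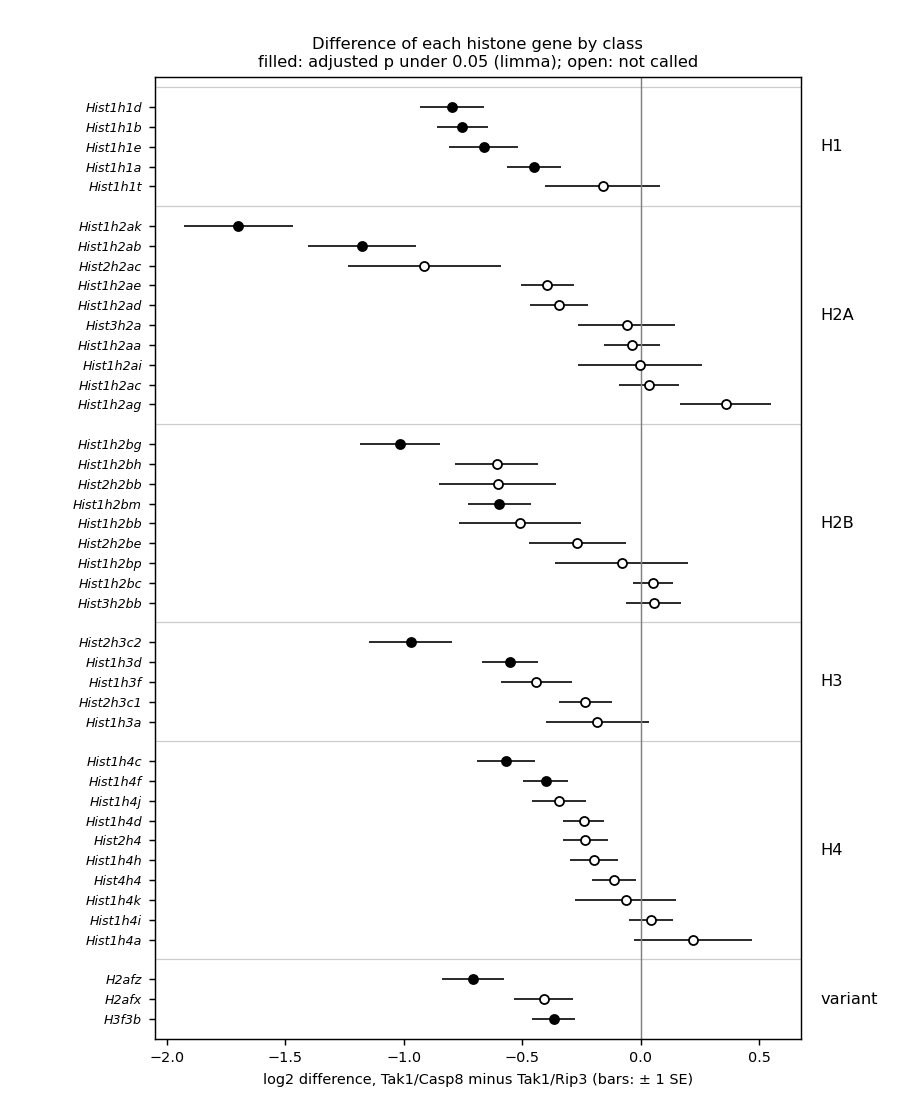
Difference in log2 level (Tak1/Casp8 minus Tak1/Rip3) of each of the 42 histone genes with its standard error, grouped by histone class, with filled points for genes called at an adjusted p under 0.05. All 14 filled points lie left of 0, and the 6 points right of 0 reach no further than 0.36.

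Most calls lay in the Hist1 cluster and among the brighter genes. In Hist1, the large cluster on chromosome 13, 11 of 30 members were called lower, with a median of -0.37. In Hist2, 1 of 6 was called lower, with a median of -0.44. The 2 Hist3 members and the 1 Hist4 member were not called. Among the 28 members at or above the 30th percentile of level, 12 were called lower, where 5.23% of all genes at such levels were, and their median was -0.41. Among the 14 dimmer members, 2 were called lower, where 1.3% of dim genes were, and the median of the 14 was -0.12. These 2 calls were Hist1h2ab and Hist2h3c2, at percentiles 17 and 21.9 of gene level, each on 1 probe set. The 34 core histone genes of the clusters counted 8 lower, with a median of -0.25 and 28 negative. Without the testis gene Hist1h2aa and the pseudogene Hist3h2bb, 32 core genes counted 8 lower, with a median of -0.31.

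The linker histone genes are shown first because all 4 somatic H1 genes with a value were called, Hist1h1c being without one here. These genes share a known promoter layout, in which an H1 box lies far upstream of a CCAAT box and a TATA box. The 130 bases before the RefSeq start of each gene (assembly GRCm38.p6) are printed in lower case. Capitals mark the TATA box TATAAA, the CCAAT box, which reads ATTGG where it lies on the opposite strand, and the H1 box AAACACA.

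Hist1h1a, chr13:23763538-23763667, plus strand: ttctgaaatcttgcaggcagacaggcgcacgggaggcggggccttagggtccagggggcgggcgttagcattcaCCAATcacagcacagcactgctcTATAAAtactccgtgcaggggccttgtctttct
Hist1h1b, chr13:21780626-21780755, minus strand: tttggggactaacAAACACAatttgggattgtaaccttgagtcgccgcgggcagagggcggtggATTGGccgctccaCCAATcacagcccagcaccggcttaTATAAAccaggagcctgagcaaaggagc
Hist1h1d, chr13:23554902-23555031, plus strand: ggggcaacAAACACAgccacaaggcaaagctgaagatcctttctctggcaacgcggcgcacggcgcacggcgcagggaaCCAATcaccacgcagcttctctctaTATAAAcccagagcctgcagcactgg
Hist1h1e, chr13:23622559-23622688, minus strand: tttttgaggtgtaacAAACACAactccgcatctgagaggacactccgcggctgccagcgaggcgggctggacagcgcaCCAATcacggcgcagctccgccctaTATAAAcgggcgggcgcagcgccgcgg

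The CCAAT box began 56, 53, 51 and 52 bases before the start in Hist1h1a, Hist1h1b, Hist1h1d and Hist1h1e, and the TATA box 33, 28, 26 and 27 bases before it. The H1 box began 117, 122 and 115 bases before the start in Hist1h1b, Hist1h1d and Hist1h1e. These letters were not in the window printed for Hist1h1a.

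Linker H1 was the class with the largest share of calls. Hist1h1b (H1f5) stood at 8.99, 8.85, 8.70 and 9.12 in the 4 Tak1/Casp8 livers and at 9.78, 9.65, 9.60 and 9.66 in the 4 Tak1/Rip3 livers. Every Tak1/Casp8 array was below every Tak1/Rip3 array. The difference was -0.75 ± 0.11, or 1.69-fold lower (adjusted p = 0.00341). Hist1h1d (H1f3) stood at 6.45, 6.39, 6.72 and 6.54 against 7.54, 7.07, 7.14 and 7.53. Its groups were also apart, by -0.80 ± 0.13, or 1.74-fold (adjusted p = 0.00762).

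Hist1h1e (H1f4), among the most abundant somatic H1 subtypes in many tissues, stood at 9.29, 9.24, 9.55 and 8.94 against 10.17, 9.72, 9.78 and 10.01. The difference was -0.66 ± 0.15, or 1.58-fold lower (adjusted p = 0.0239), without overlap. It missed the threshold without Tak1/Rip3 replicate 1 (adjusted p = 0.0724) or 4 (0.0754) and without Tak1/Casp8 replicate 1 (0.0520) or 2 (0.0643). Hist1h1a (H1f1) stood at 8.35, 8.23, 8.26 and 8.62 against 8.98, 8.81, 8.66 and 8.81. It was lower by the least of the 4, -0.45 ± 0.12, or 1.37-fold (adjusted p = 0.0443). This call was lost in 7 of the 8 fits that left out 1 array, all but that without Tak1/Casp8 replicate 4, with an adjusted p from 0.0557 to 0.127. It was also lost under quantile normalisation (adjusted p = 0.0671), a shift of arrays to 1 median (0.0712) and with the brightest probe set (0.0687). The median of the 4 somatic genes was -0.71. The testis-specific Hist1h1t (H1f6) differed by -0.16 (adjusted p = 0.762).

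**Figure D2:**
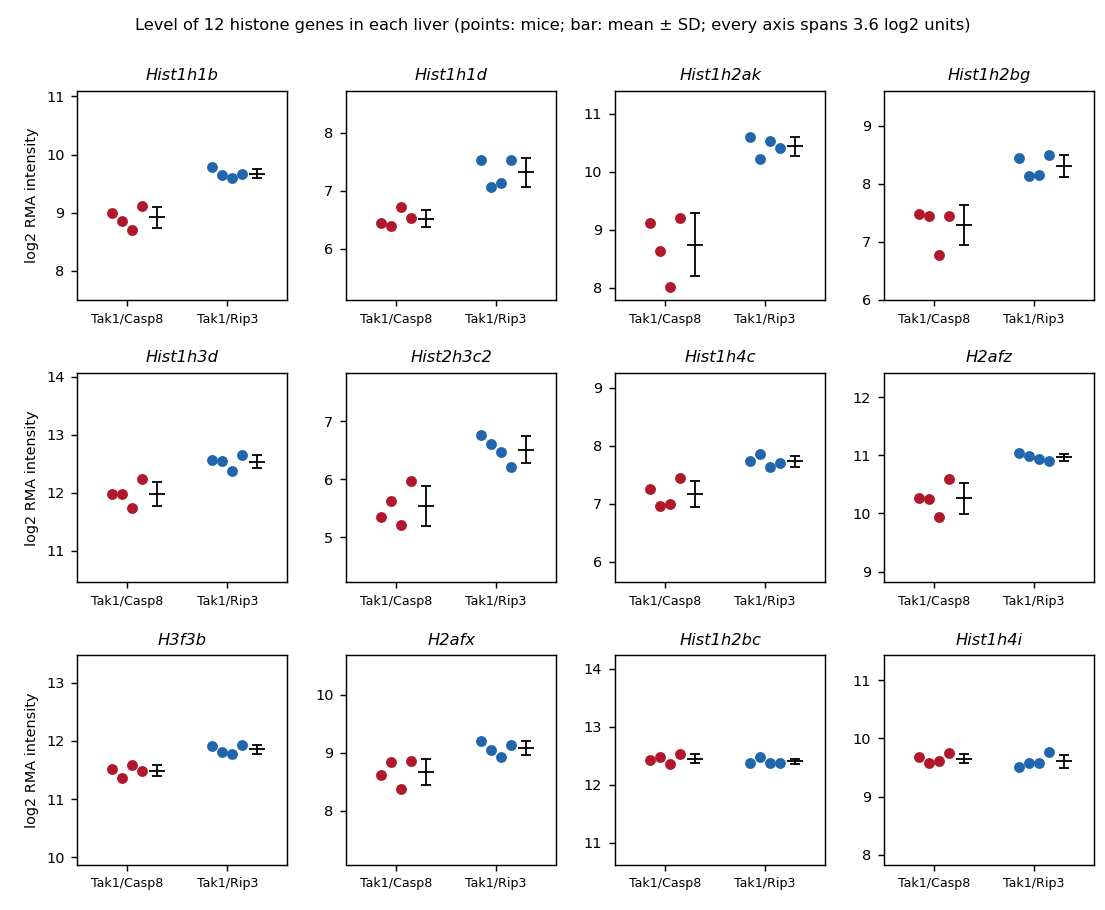
Log2 level of 12 histone genes in each of the 8 livers (points), with the mean ± SD of each group of 4 beside them. The axis of each panel covers the same span of log2 units; Hist1h2bc and Hist1h4i are shown as members whose groups overlapped.

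Among the H2A genes the largest difference of all members was seen, but most of the class was not called. Hist1h2ak stood at 9.11, 8.63, 8.02 and 9.20 in Tak1/Casp8 and at 10.60, 10.22, 10.53 and 10.41 in Tak1/Rip3. The Tak1/Casp8 arrays were spread over a wider range and were all below the others. The difference was -1.70 ± 0.23, or 3.25-fold lower (adjusted p = 0.00270), and its 3 probe sets differed by -1.70, -0.74 and -0.69. The gene's difference was -1.04 with the mean over its probe sets, -0.74 with the brightest and -0.62 with shared probe sets included, and it was called in each case. With shared probe sets included, the value of a gene is the median over its own and the shared probe sets naming it. Where the shared ones outnumber its own, that value mostly reads several genes together. Hist1h2ab stood at 5.35, 4.65, 4.70 and 5.70 against 6.55, 5.95, 6.33 and 6.27. It was lower by 1.18 ± 0.23, or 2.26-fold (adjusted p = 0.0139).

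These were the 2 H2A genes called of 10, and the class median was -0.20. Hist2h2ac differed by -0.91 ± 0.32 (adjusted p = 0.131), with overlapping groups. Hist1h2ae differed by -0.39 (adjusted p = 0.0673), without overlap, and by -0.66 (adjusted p = 0.0154) when its brightest probe set stood for the gene. It differed by -0.12 (adjusted p = 0.429) with the mean over its 5 probe sets and by 0.01 (adjusted p = 0.992) with shared probe sets included. Hist1h2ad differed by -0.34 (adjusted p = 0.132). With shared probe sets included, Hist1h2ad at -0.61 (adjusted p = 0.0118) and Hist2h2ac at -0.50 (adjusted p = 0.0323) were called. For both genes the shared probe sets outnumbered their own, so these are not gene-specific calls. Hist1h2ag, the member with the largest positive difference, differed by 0.36 ± 0.19 (adjusted p = 0.328). With its 8 shared probe sets included beside its 1 own, the median differed by -0.61 (adjusted p = 0.0121). Hist1h2ac differed by 0.03 (adjusted p = 0.916), with means of 4.35 against 4.31. The values of Hist1h2ae, Hist1h2ag and Hist1h2ac were dim, at percentiles 1.8, 2 and 4.8 of gene level. For Hist1h2ae this holds for the median over its 5 probe sets. Its brightest probe set averaged 9.68 against 10.34, at percentile 81.2 of probe set level. Hist1h2ae, Hist2h2ac and Hist1h2ad were singled out after their values were seen.

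Among the 9 H2B genes, 2 were called lower and the class median was -0.51. Hist1h2bg stood at 7.48, 7.44, 6.78 and 7.45 against 8.44, 8.13, 8.15 and 8.49. All Tak1/Casp8 arrays were lower, by 1.02 ± 0.17 or 2.02-fold (adjusted p = 0.00668), and the third Tak1/Casp8 array lay below the rest of its group. Hist1h2bm stood at 8.99, 8.87, 8.60 and 9.12 against 9.67, 9.48, 9.27 and 9.55. Its difference was -0.60 ± 0.13, or 1.51-fold lower (adjusted p = 0.0241). It missed the threshold without Tak1/Rip3 replicate 1 (adjusted p = 0.0760) or 4 (0.0742), without Tak1/Casp8 replicate 2 (0.0671) or 3 (0.0554), and at -0.39 with shared probe sets included (0.119).

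Other H2B genes did not pass. Hist1h2bh differed by -0.61 (adjusted p = 0.0675) and Hist1h2bb by -0.51 (adjusted p = 0.294). Hist2h2bb differed by -0.60 ± 0.25 (adjusted p = 0.195), and its probe sets disagreed, at -1.31, -1.06 and -0.05. These 3 were singled out after their values were seen. Hist1h2bc, an H2B gene known to yield polyadenylated transcripts as well, stood at 12.44, 12.48, 12.36 and 12.53 against 12.38, 12.47, 12.38 and 12.38. Its groups overlapped, and the difference was 0.05 ± 0.08 (adjusted p = 0.790). With shared probe sets included it was -0.36 (adjusted p = 0.122). Hist3h2bb, a pseudogene in RefSeq, differed by 0.06 (adjusted p = 0.837), and by -0.05 (adjusted p = 0.833) with shared probe sets included.

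H2A and H2B genes often sit head to head and share the sequence between them. Of 10 adjacent H2A and H2B pairs in the RefSeq gene table, 4 had a value for both genes. Hist1h2ae and Hist1h2bg, 180 bases apart, differed by -0.39 and -1.02. Hist2h2ac and Hist2h2be, 192 bases apart, differed by -0.91 and -0.27. Hist1h2ac and Hist1h2bc, 240 bases apart, differed by 0.03 and 0.05, and Hist1h2ab and Hist1h2bb, 3865 bases apart, by -1.18 and -0.51. Whether the genes of a pair differed from each other was not tested.

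The promoters of 2 core histone genes are shown, Hist1h2bg, which was called, and Hist1h2ac, which was not. Hist1h2ac lay at percentile 4.8 of gene level, where a lack of signal and a lack of difference cannot be told apart. Capitals mark the TATA box TATAAA, the CCAAT box, which reads ATTGG on the opposite strand, and the octamer ATTTGCAT (ATGCAAAT on the opposite strand), the element bound by OCT1 and known from H2B promoters.

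Hist1h2bg, chr13:23571270-23571399, plus strand: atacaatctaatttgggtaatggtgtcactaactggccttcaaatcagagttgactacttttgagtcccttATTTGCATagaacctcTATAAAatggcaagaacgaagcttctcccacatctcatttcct
Hist1h2ac, chr13:23683960-23684089, minus strand: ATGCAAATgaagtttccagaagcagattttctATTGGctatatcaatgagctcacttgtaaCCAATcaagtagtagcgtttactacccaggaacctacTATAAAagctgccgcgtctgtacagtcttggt

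In Hist1h2bg the octamer began 59 and the TATA box 43 bases before the start. CCAAT was not in this window but began further upstream, at 150 and, on the opposite strand, 178 bases before the start. Hist1h2ac held a TATA box 32, a CCAAT box 69 and, on the opposite strand, an octamer 130 bases before its start. Both promoters thus held the octamer and a TATA box.

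Over the members as a whole, the letters TATAAA and CCAAT were common in called and uncalled genes alike. Matches count wherever they lie in the window, so not all are placed as in the H1 promoters above. In Hist1h2ak, TATAAA began 21 bases after the start. RefSeq promoters matched 35 of the 42 members, and windows of 300 bases, from 250 bases before each start to 50 after it, were searched on both strands. TATAAA was in 62.9% of members and 13.6% of all 32851 promoters, CCAAT in 82.9% and 37.4%, and the octamer ATTTGCAT in 31.4% and 1.74%. The octamer was in 6 of 10 H2A and 4 of 6 H2B promoters and in none of those of H1, H3 or H4. It lay on the opposite strand in each of these H2A promoters and on the same strand in the H2B promoters. Windows of head-to-head genes overlap, so the same octamer can be counted for both genes of a pair. Members called lower held TATAAA in 71.4%, CCAAT in 92.9% and the octamer in 28.6%, and members not called in 57.1%, 76.2% and 33.3%. AAACACA was in 35.7% of called members, 9.52% of members not called and 7.18% of all promoters. It was held by 4 of the 5 H1 promoters, among them that of Hist1h1t, which was not called. These shares are a description, with no test.

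Among the H3 genes, which carry the tail modified in many chromatin marks, 2 of 5 were called lower and the median was -0.44. Hist2h3c2 stood at 5.35, 5.63, 5.20 and 5.97 against 6.76, 6.61, 6.47 and 6.20. The difference was -0.97 ± 0.17, or 1.96-fold lower (adjusted p = 0.0101). Hist1h3d stood at 11.99, 11.98, 11.74 and 12.24 against 12.56, 12.55, 12.38 and 12.66. Neither gene's groups overlapped, and Hist1h3d was lower by 0.55 ± 0.12, or 1.47-fold (adjusted p = 0.0213). The Hist1h3d call was lost without Tak1/Rip3 replicate 1 (adjusted p = 0.0627) or 4 (0.0723) and without Tak1/Casp8 replicate 1 (0.0504), 2 (0.0594) or 3 (0.0521). Hist1h3f differed by -0.44 (adjusted p = 0.117), Hist2h3c1 by -0.23 (adjusted p = 0.267) and Hist1h3a by -0.18 (adjusted p = 0.691). With shared probe sets included, all 3 were called, Hist1h3f at -0.81 (adjusted p = 0.0117), Hist2h3c1 at -0.74 (adjusted p = 0.0117) and Hist1h3a at -0.77 (adjusted p = 0.0110). Shared probe sets outnumbered their own for these 3 genes, so the calls mostly read the same family and are not separate.

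The H4 genes encode the same or nearly the same protein, and 2 of 10 were called lower. Hist1h4c stood at 7.25, 6.97, 7.00 and 7.44 against 7.73, 7.86, 7.63 and 7.70. It was lower by 0.57 ± 0.12, or 1.48-fold (adjusted p = 0.0206). It missed the threshold without Tak1/Rip3 replicate 1 (adjusted p = 0.0594) or 4 (0.0559) and without Tak1/Casp8 replicate 2 (0.0641) or 3 (0.0581). Hist1h4f stood at 8.67, 8.74, 8.70 and 8.88 against 9.26, 9.18, 9.01 and 9.15. Its groups were apart as well, by -0.40 ± 0.09, or 1.32-fold (adjusted p = 0.0308). That call was lost in 6 of the 8 fits that left out 1 array, all but those without Tak1/Rip3 replicate 3 or Tak1/Casp8 replicate 4, with an adjusted p from 0.0539 to 0.0938. It was also lost under quantile normalisation (adjusted p = 0.0520) and a shift of arrays to 1 median (0.0590). With shared probe sets included, both missed the threshold, Hist1h4c at -0.30 (adjusted p = 0.0643) and Hist1h4f at -0.32 (adjusted p = 0.0523). The other 8 H4 genes did not pass, and the class median was -0.22. Hist1h4i stood at 9.67, 9.57, 9.61 and 9.75 against 9.51, 9.58, 9.57 and 9.76. These values overlapped almost fully, with a difference of 0.05 ± 0.09 (adjusted p = 0.834), and Hist1h4a differed by 0.22 ± 0.25 (adjusted p = 0.671). With shared probe sets included Hist1h4a differed by -0.32 (adjusted p = 0.0544).

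Probe sets that match several histone genes read the RNA of a family together, and their differences were negative in each family. Copies within a class are nearly identical, so a probe set named for 1 gene may also take up RNA of its copies, and single-gene values are uncertain to that extent. Of 118 probe sets that name a histone gene, 79 name 1 gene alone and 39 name several, up to 10. Of the 79, 7 were called lower and 0 higher over all probe sets, where 1.09% were called lower and 0.542% higher, and 64 were negative. Of the 34 shared among histone genes only, 0 were called by limma (adjusted p from 0.0519 to 0.582), 32 were lower and 0 higher at an unadjusted p under 0.05, and 34 were negative. The groups did not overlap in 28 of these 34, where 6.53% of all probe sets were lower without overlap. Some of the 118 probe sets hold identical values, and shared ones overlap in the genes they name. These counts are therefore not of independent readings. The shares of all probe sets that were negative, or lower at an unadjusted p under 0.05, were not counted.

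**Figure D3:**
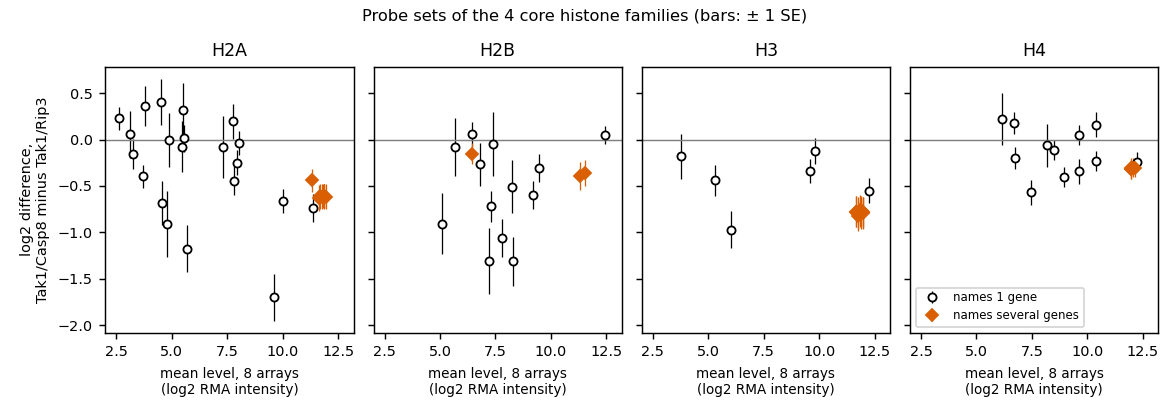
Difference in log2 level (Tak1/Casp8 minus Tak1/Rip3) of each histone probe set against its mean level over the 8 arrays, in the 4 core histone families. Open circles name 1 gene, diamonds name several genes of the family, and bars are 1 standard error; all diamonds lie below 0.

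A family value, the median over the shared probe sets of 1 family, was added after the data were seen. Family values were fitted beside the gene values, with p-values adjusted over 19564 rows and not over all probe sets. Over all probe sets, limma called none of those behind the H3 value (adjusted p from 0.0519 to 0.0635) or the H2A value (0.0646 to 0.133). The family calls are thus not evidence separate from these probe sets. Family H3, over 11 probe sets, 10 of them distinct in value, stood at 11.60, 11.34, 11.10 and 11.80 against 12.31, 12.23, 12.11 and 12.27. The difference was -0.77 ± 0.14, or 1.71-fold lower (adjusted p = 0.0116). Family H2A, over 9 probe sets, 8 of them distinct in value, stood at 11.68, 11.37, 11.33 and 11.71 against 12.22, 12.11, 11.98 and 12.22. It was lower by 0.61 ± 0.12, or 1.52-fold (adjusted p = 0.0128). Both calls held without any 1 of the 8 arrays.

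Family H4, over 5 probe sets, 4 of them distinct in value, stood at 11.89, 11.76, 11.80 and 11.90 against 12.23, 12.18, 12.04 and 12.16. Its groups did not overlap, but the difference of -0.31 ± 0.09 did not pass (adjusted p = 0.0589). Family H2B, over 3 probe sets, differed by -0.39 ± 0.13 (adjusted p = 0.122), with overlap. The H3 value less the H4 value was -0.29, -0.42, -0.70 and -0.10 in the Tak1/Casp8 arrays and 0.08, 0.05, 0.07 and 0.12 in the Tak1/Rip3 arrays. Every Tak1/Casp8 array was below every Tak1/Rip3 array, and this difference was not tested. When each group kept its own unmoderated variance, the adjusted p was 0.151 for H3 and 0.103 for H2A.

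Of the 3 variants, 2 were called lower, and the median was -0.41. H2afz (H2az1), which encodes H2A.Z, a variant placed at promoters, stood at 10.27, 10.24, 9.93 and 10.59 against 11.04, 10.99, 10.94 and 10.90. The groups were apart by -0.71 ± 0.13, or 1.63-fold (adjusted p = 0.0112), and 9 of its 9 probe sets were negative. H3f3b, which encodes H3.3, stood at 11.53, 11.36, 11.59 and 11.48 against 11.91, 11.81, 11.78 and 11.92. It was lower by 0.37 ± 0.09, or 1.29-fold (adjusted p = 0.0384), with 7 of 7 probe sets negative, some of them with identical values. That call was lost in each of the 8 fits that left out 1 array, with an adjusted p from 0.0503 to 0.114, after a shift of arrays to 1 median (0.0617) and with the brightest probe set (0.0593). H2afx, whose protein is phosphorylated at DNA breaks, stood at 8.62, 8.84, 8.37 and 8.85 against 9.20, 9.05, 8.93 and 9.13. Its groups did not overlap, but the difference of -0.41 ± 0.12 did not pass (adjusted p = 0.0813).

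Of 6 further variant genes, 2 were called lower, with a median of -0.34. H1fx, a replication-independent linker histone, stood at 7.76, 7.78, 7.68 and 7.83 against 8.77, 8.80, 8.12 and 8.51, a difference of -0.79 ± 0.14 (adjusted p = 0.0112). Cenpa, the H3 variant of centromeres, stood at 8.20, 8.16, 8.38 and 8.71 against 9.34, 8.83, 9.19 and 9.38, a difference of -0.82 ± 0.16 (adjusted p = 0.0124). Both genes had groups that did not overlap. H2afy, which encodes macroH2A, differed by -0.37 (adjusted p = 0.122).

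No gene of the machinery that transcribes and trims histone mRNA was called. Of 11 genes for histone pre-mRNA processing, 0 passed with limma, with 1 higher and 0 lower at an unadjusted p under 0.05, and the median was -0.21. Slbp, which encodes the stem-loop binding protein, stood at 8.06, 8.16, 7.44 and 8.29 against 8.47, 8.33, 8.29 and 8.25. Its groups overlapped, and the difference was -0.35 (adjusted p = 0.266). Npat, the activator of histone gene transcription at the end of G1, differed by -0.21 (adjusted p = 0.332), and Casp8ap2, a partner of caspase 8 also needed for histone expression, by -0.22 (adjusted p = 0.310). Lsm10, a subunit of the snRNP that guides the processing, differed by 0.24 (adjusted p = 0.168). Whether these genes differed less than the histone genes was not tested.

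Chaperones that hand new histones to copied DNA were lower in part. Of 11 genes for replication-coupled chaperones and import, 4 were called lower and 0 higher, with a median of -0.34. Chaf1a, the large subunit of the chromatin assembly factor CAF-1, stood at 7.09, 6.98, 7.03 and 7.66 against 8.09, 7.92, 7.84 and 7.98, a difference of -0.77 ± 0.15 (adjusted p = 0.0132). Hat1, which acetylates new H4, differed by -0.63 ± 0.13 (adjusted p = 0.0169), and Chaf1b, another CAF-1 subunit, by -0.54 ± 0.13 (adjusted p = 0.0328). The fourth was Mms22l, named after its value was seen, at -0.78 ± 0.20 (adjusted p = 0.0426).

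Of 14 genes for chaperones that act outside replication, 1 was called lower and 0 higher, with a median of -0.04. This was Anp32e, which removes H2A.Z from chromatin, at 7.83, 8.12, 7.53 and 7.70 against 8.32, 8.74, 8.35 and 8.62. It differed by -0.71 ± 0.14 (adjusted p = 0.0169), and H2afz, the gene of its client histone, was lower too. Hjurp, which loads the centromeric H3 variant, differed by -0.27 (adjusted p = 0.160), and Dek, a chaperone of H3.3, by -0.19 (adjusted p = 0.297).

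Cell cycle genes were lower in the same livers. Of 24 S phase genes, 10 were called lower and 0 higher, all 24 were negative and the median was -0.55. Rrm2, which supplies deoxynucleotides, differed by -1.60 (adjusted p = 0.00788), Tyms, which makes thymidylate, by -1.03 (adjusted p = 0.00880). Prim1, the primase subunit, was lower as well (adjusted p = 0.0109). Of 19 genes for G2 and M phase, 19 were called lower, with a median of -1.46. They included the mitotic kinases Plk1 at -1.89 (adjusted p = 0.00257) and Aurka at -1.40 (adjusted p = 0.00386), and the mitotic kinesin Kif20a at -2.13 (adjusted p = 0.00394). The size of the histone differences against those of the cell cycle lists was not tested.

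**Figure D4:**
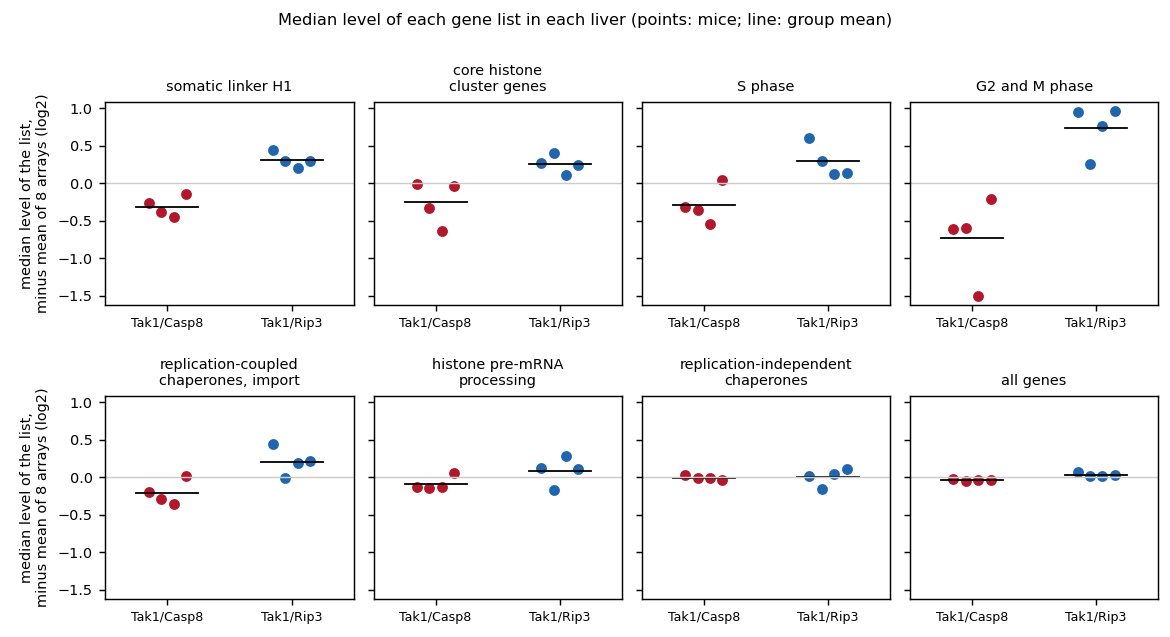
Median log2 level of each gene list in each of the 8 livers, less the mean over the 8 arrays, with 1 panel per list and all genes as the last panel. Lines are group means. The 4 Tak1/Casp8 points lie below the 4 Tak1/Rip3 points for somatic linker H1, core histone genes, S phase, and G2 and M phase, and by a far smaller distance for all genes, whose median was 7.69 to 7.73 against 7.77 to 7.83.

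Markers of other liver cells moved in some lists. Of 5 B and plasma cell markers, 2 were called lower, Cd79a at -1.38 and Ms4a1 at -1.11, and 1 was higher, Jchain at 2.03. These called B cell markers and Jchain, of antibody-secreting cells, thus went opposite ways. Cd79b at -0.40 (adjusted p = 0.0899) and Mzb1 at 0.28 (adjusted p = 0.269) were not called, and the groups overlapped for both. The log2 summed level of the list was 9.33 to 10.10 in Tak1/Casp8 and 9.17 to 9.36 in Tak1/Rip3. Of 6 stellate cell and fibroblast markers, 2 were called lower, Lrat by 0.59 and Reln by 0.65, with sums of 13.44 to 13.89 and 13.99 to 14.02.

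The T and NK cell list of 6 had 0 called by limma, with 3 lower and 0 higher at an unadjusted p under 0.05, and sums of 9.45 to 9.49 and 9.59 to 9.70. The Kupffer cell, endothelium and erythroid lists had 0 called by limma, with 1, 1 and 0 lower and 0, 1 and 0 higher at an unadjusted p under 0.05. The hepatocyte, neutrophil and cholangiocyte lists each had 1 gene called higher, Serpina1a, Cxcr2 and Spp1. In the cholangiocyte list 4 of 6 markers were negative, 2 of them lower at an unadjusted p under 0.05, and the median was -0.20. The array values carry no detection call, so no marker could be said to be absent. The part of these cells in the histone differences was not tested.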

How the data were processed

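Liver RNA of 8 mice was measured on 8 arrays, 4 per genotype as labelled. The deposited values are log2 intensities per probe set, which the submitters' processing notes say the authors normalised with RMA, with no version named. RMA brings the arrays to a shared distribution, so a shift common to most genes would be largely removed. Labelling used a whole-transcript kit, per the labels' protocols. Arrays have no read depth.

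Of 223771 probe sets, 206316 had 1 symbol in the platform annotation, which is old, 3734 several and 13721 none. For names, 2571 symbols were updated through RefSeq GRCm38.p6. Single-symbol probe sets were reduced to their median per gene and array, giving 19560 genes, with no filter on level. A fit with lmFit and eBayes (limma 3.58.1, R 4.3.3) compared the groups, with adjusted p-values over all genes. It was first tested on simulated data. Figures were drawn with matplotlib 3.10.9. RefSeq promoter sequences were searched for exact motifs.

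The members and lists were chosen with earlier results of these data known. Named genes are, in each class, the members called and up to 2 with the largest difference of the opposite sign, the variants, up to 3 genes per companion list with the smallest p, Slbp, Npat and Casp8ap2, and the targeted genes. All others named were chosen after their values were seen. Alternatives covered normalisation, the value per gene, shared probe sets, filters on level, variance settings, array weights, thresholds and each array left out.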

Additional observations from a re-analysis of the deposited data

Results flagged for a closer look

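Among 84 groups of 4 arrays, 4 held a value far from its other 3 (a gap to its neighbour that fills nearly all of the group's range), and chance gives about 1 in 20. Hist1h1t was 5.64 in Tak1/Casp8 replicate 4, where the others ranged from 4.79 to 4.83. Hist1h2bg was 6.78 in Tak1/Casp8 replicate 3, where the others ranged from 7.44 to 7.48. All 4 of these Hist1h2bg values were below the Tak1/Rip3 arrays. Hist2h2ac was 4.41 in Tak1/Rip3 replicate 2, where the others ranged from 5.46 to 5.61. Hist1h2bc was 12.47 in Tak1/Rip3 replicate 2, where the others were all at 12.38.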

How the results depend on the processing

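The count of 14 members called lower was 12 under quantile normalisation and 11 after a shift to 1 median. It was 15 with the mean over probe sets, 14 with the brightest probe set and 18 with shared probe sets included. Members named by the same shared probe sets are not separate calls in that last setting. Of all 19560 genes, 792 were called lower in the main fit, 724 under quantile normalisation and 679 after the shift. With the mean, the brightest probe set and shared probe sets included, 1089, 448 and 807 were. The count of members was 4 at an adjusted p under 0.01, 17 under 0.10 and 0 with unmoderated variances, separate for each group. Genes called lower then numbered 265, 1245 and 69. Of the 15 members on 2 or more probe sets, 6 were called lower. Leaving out 1 array gave 7 to 15 members called lower, against 438 to 860 of all genes. It gave 7 members without Tak1/Rip3 replicate 1, Tak1/Rip3 replicate 4 or Tak1/Casp8 replicate 2, and 8 without Tak1/Casp8 replicate 3. No alternative run called a member higher. The 2 variant calls became 1 after a shift to 1 median, 1 with the brightest probe set, 1 without any single array (range 1 to 1), 1 without both least correlated arrays, 0 with separate variances and 0 at an adjusted p under 0.01. The somatic H1 median of -0.71 became -0.55 with the brightest probe set. Hist1h2ag gave -0.61 (adjusted p = 0.0121) with shared probe sets included, where 8 of its probe sets were shared and 1 was its own. That value reads the H2A family and is not a reversal of the gene. The cause of the other changes was not tested, apart from fewer members tested. Of the 14 calls, 7 were lost only with separate variances or at an adjusted p under 0.01: Hist1h1b, Hist1h1d, Hist1h2ak, Hist1h2bg, Hist1h2ab, Hist2h3c2 and H2afz. The family values were added after seeing the data. No paired analysis was possible because the labels give no replicate number shared between the groups.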

Other observations

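The 5 probe sets that name both Trim17 and Hist3h2a had a median difference of 0.25, and 0 of them were called by limma. They are the only shared histone probe sets that also name a gene other than a histone.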
